A study of Mus musculus with 8 samples.

Results

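Immunoglobulin gene segments were examined in liver RNA from mice that lack Brap in hepatocytes, as the trace that B cells and plasma cells leave in a bulk liver library. The members were every gene in the deposited table whose gene type begins with IG_ and is not a pseudogene type, which gave 144 of 24451 genes. They comprised 11 constant segments, 122 variable segments (58 heavy, 61 kappa and 3 lambda) and 11 joining segments. Bulk RNA sequencing was performed on the left liver lobe of 4 Brap LKO mice (Brap fl/fl with Alb Cre) and 4 Brap F/F mice (Brap fl/fl without Cre). Mice of both groups were male, on a C57BL/6 background, 18 wk old and fasted for 6 h, and both carried the floxed Brap alleles. Cre was driven by the Albumin promoter, so that the floxed exons are removed in hepatocytes, while B cells and other blood cells keep them. The paper's methods describe bleeding by cardiac puncture before tissue collection. The comparison addresses how the livers of the 2 groups differ in immunoglobulin transcripts, and nothing in the labels says more about its purpose.

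An immunoglobulin chain is encoded by segments that B cells join in their DNA. A variable segment and a joining segment, with a diversity segment in heavy chains, form the part that binds antigen, and a constant segment gives the chain its class. Ighm and Ighd are made first and together by resting B cells, whereas switching of the heavy chain class brings in Ighg or Igha segments. Plasma cells, the secreting end stage, hold far more immunoglobulin mRNA per cell than B cells do. In a bulk sample, fewer cells of a type and less RNA per cell cannot be told apart. All 144 members were found under the same names in the GENCODE vM21 annotation of mm10 (GRCm38), the build to which the reads were aligned. The heavy members lay between bases 113254830 and 115953005 of chromosome 12, the kappa members between 67555497 and 70726966 of chromosome 6, and the lambda members between 19061618 and 19260859 of chromosome 16.

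Sequences of the heavy joining segments and of the lambda variable pair are shown because they set what a read of 50 bases can tell. The 4 heavy joining segments (chr12:113429781-113429833, chr12:113429468-113429515, chr12:113429085-113429132 and chr12:113428514-113428567, minus strand, mm10) were 53, 48, 48 and 54 bases long. A read of 50 bases thus holds at most all of Ighj2 or Ighj3 with little else, and cannot hold all of Ighj1 or Ighj4. Capitals mark the shared TGGGG.
Ighj1: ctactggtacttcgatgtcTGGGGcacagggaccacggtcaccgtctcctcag
Ighj2: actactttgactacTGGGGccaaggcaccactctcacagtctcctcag
Ighj3: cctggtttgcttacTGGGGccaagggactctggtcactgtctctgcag
Ighj4: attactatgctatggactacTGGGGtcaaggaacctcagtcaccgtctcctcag

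Iglv1 and Iglv2, both among the variable segments of highest mean level, were nearly identical over 300 bases of their second coding exon (chr16:19085019-19085318 and chr16:19260403-19260702, minus strand, mm10). They differed at 8 bases, given in capitals, which is an identity of 97.33%. The longest identical stretch was 104 bases, and 76 of the 251 words of 50 bases were common to both, so a read from such a stretch fits both segments.
Iglv1: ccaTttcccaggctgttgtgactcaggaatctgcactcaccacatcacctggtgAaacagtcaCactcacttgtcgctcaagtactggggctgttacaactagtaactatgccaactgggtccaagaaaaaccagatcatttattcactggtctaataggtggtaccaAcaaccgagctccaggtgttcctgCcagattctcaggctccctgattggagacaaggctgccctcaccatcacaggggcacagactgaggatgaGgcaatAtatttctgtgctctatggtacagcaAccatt
Iglv2: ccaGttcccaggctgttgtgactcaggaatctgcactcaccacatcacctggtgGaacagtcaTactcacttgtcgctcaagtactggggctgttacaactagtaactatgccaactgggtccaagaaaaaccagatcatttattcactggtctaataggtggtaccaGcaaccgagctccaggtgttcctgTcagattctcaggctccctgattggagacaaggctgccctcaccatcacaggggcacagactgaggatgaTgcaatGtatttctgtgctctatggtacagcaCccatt

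Across the variable segments, 103 of 122 shared at least 1 word of 50 bases with another annotated gene, and in 13 the shared words were at least 50% of all words, the most being 74.3% in Igkv4-59. Values of single variable segments are therefore uncertain where the counting could split or drop such reads, and sums over a chain are given first. Of the joining segments, 8 of 11 had annotated exons shorter than a read, and Ighj2, with 48 coding bases, has an annotated exon of 100 bases. The constant segments Ighm, Igkc, Igha, Ighd and Iglc1 shared no word with another gene, and Iglc3 shared the most (22.3%, with Iglc2).

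Each liver had 26280884 to 33313914 reads on genes, of which 344 to 955 lay on immunoglobulin segments (10.9 to 31.7 RPM, scaled to the reads on genes). Constant segments took 3808 of these 4829 reads (78.9%), variable segments 936 (19.4%) and joining segments 85 (1.76%). Values below are normalized counts, in which a read is worth 0.850 to 1.14, depending on the liver. The liver identity of the tissue was plain, with Apoa1, an apolipoprotein made by hepatocytes, at 226790 to 309920 normalized counts. Brap itself stood at 3641 to 4203 normalized counts in Brap LKO livers and 3994 to 4410 in Brap F/F livers (log2 difference -0.07, SE 0.068, limma adjusted p = 0.631). A count over the whole gene includes exons outside the floxed part, so this level does not check the labels.

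Summed over all 122 segments, the variable segments were higher in every Brap LKO liver than in any Brap F/F liver. The sum was 183, 130, 147 and 129 normalized counts in Brap LKO livers 1 to 4 and 91.2, 93.6, 59.9 and 82.4 in Brap F/F livers 1 to 4. The groups did not overlap, and the ratio of their means was 1.80 (147 ± 25.3 against 81.8 ± 15.3, SD, n = 4 each). In reads this was 124 to 201 against 57 to 92. For single genes with a mean of at least 5, all Brap LKO livers exceeded all Brap F/F livers in 5.48% of 15352 genes, and in 1.49% of the 9099 genes below that mean. The sum was not tested, since its members were chosen with earlier results known. With each liver left out in turn the ratio was 1.65 to 1.89, while leaving out a liver cannot make separate groups overlap. The separation of the groups stood with 2 other scalings of the libraries (1.82 with TMM factors and 2.01 with the same total per liver).

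Heavy and kappa variable segments separated the groups on their own, whereas the few lambda reads did not. Heavy variable segments summed to 71.0, 57.8, 55.6 and 45.8 normalized counts in Brap LKO livers and to 39.9, 35.6, 27.3 and 30.4 in Brap F/F livers, a ratio of 1.73. Kappa variable segments summed to 99.3, 68.8, 81.9 and 64.5 against 47.9, 51.9, 24.2 and 42.2, a ratio of 1.89. Both chains thus had their lowest value of the 8 livers in Brap F/F 3 and their highest in Brap LKO 1. Lambda variable segments ranged from 3.40 to 18.7 normalized counts in Brap LKO livers and from 3.42 to 9.81 in Brap F/F livers, with overlap. Joining segments ranged from 9.11 to 17.2 and from 5.26 to 11.8, also with overlap.

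**Figure D1:**
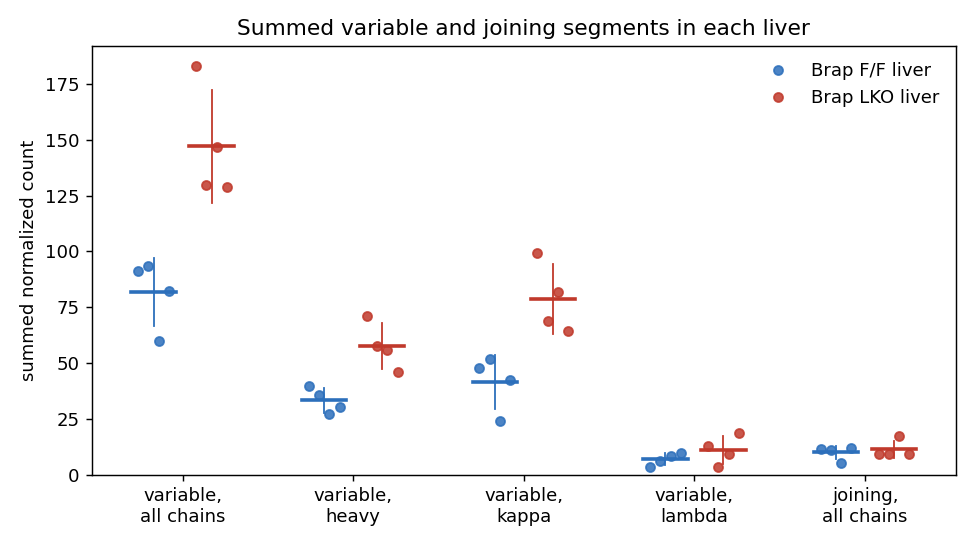
Summed normalized counts of variable segments (all chains, heavy, kappa, lambda) and of joining segments in each liver, on a linear axis from 0. Points are livers, thick lines group means and thin lines 1 SD (n = 4 per group). The Brap LKO points lie above all Brap F/F points for all chains together, heavy and kappa, and overlap with them for lambda and joining segments.

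The animal numbers in the labels form a lower and a higher series that cross the groups unevenly. In the lower series the variable sum was 183, 130 and 147 normalized counts in Brap LKO livers and 91.2 in the only Brap F/F liver. In the higher series it was 129 in the only Brap LKO liver and 93.6, 59.9 and 82.4 in Brap F/F livers. The Brap LKO livers were higher within both series, which follows from groups that do not overlap and is no separate check on the series.

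No single variable segment carried this difference, and none was a call. The mean over 8 livers was below 5 normalized counts in all 122 segments (median 0.642, highest 4.75), so that none entered the test with its filter on low values. The largest number of reads on a segment in any liver was 10. The mean was higher in Brap LKO livers in 90 segments (40 heavy, 47 kappa, 3 lambda) and lower in 32, whereas among the 9099 genes with a mean below 5 it was higher in 51.0%. Genes with deposited values all had at least 2 reads over the 8 livers, so segments with fewer reads are not members. Membership thus leans to segments read in the group with more variable reads. These counts therefore add no separate support to the variable sum. Without the filter, limma called 0 of 122 variable segments (0.548% of 24451 genes were called), and 15 were higher and 0 lower at an unadjusted p under 0.05, against backgrounds of 7.60% and 4.72%. With edgeR's quasi-likelihood test without the filter the call was again 0, with 8 segments higher and 0 lower at an unadjusted p under 0.05, or 6.56% of segments beside 7.30% of all genes higher and 4.08% lower. DESeq2 without a filter gave an adjusted p for 3 variable segments and also called 0 (2.48% of all genes were called), with 3 higher and 0 lower at an unadjusted p under 0.05, beside 5.84% and 4.65% of all genes.

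The segments of highest mean were Iglv1, Igkv6-15, Iglv2, Igkv10-96, Ighv1-56, Igkv1-135, Igkv19-93, Ighv6-3, Igkv8-30 and Ighv9-3, with means from 4.75 down to 2.29 normalized counts. Iglv1 had 5, 3, 7 and 7 reads in Brap LKO livers and 3, 3, 4 and 6 in Brap F/F livers. Its groups overlapped, as did those of the other 9. The near copy Iglv2 had 8, 1, 2 and 7 reads against 0, 3, 3 and 3. Igkv6-15 had 6, 2, 4 and 3 reads in Brap LKO livers and 0, 3, 1 and 9 in Brap F/F livers. These 10 segments together held 25.3% of the 936 variable reads. Only Igkv8-30 among them had a log2 difference below 0 in the fit without filter (-0.36).

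In 4 variable segments the groups did not overlap, each on a few reads, and these were picked out after their values were seen. Igkv4-57-1 was at 0.911, 2.55, 3.04 and 1.04 normalized counts in Brap LKO livers and at 0 in the 4 Brap F/F livers. Ighv1-55 was at 0.911, 0.850, 4.05 and 1.04, and Ighv14-4 at 0.911, 0.850, 2.02 and 1.04, again with 0 in the Brap F/F livers. Igkv1-110 went the other way, at 0.911, 0.850, 0 and 0 in Brap LKO livers and 2.28, 1.02, 1.05 and 0.981 in Brap F/F livers, although in reads Brap LKO 1 and 2 and Brap F/F 2, 3 and 4 were level at 1. Where a liver has 0 reads, as many as 3 remain possible at this depth, and the 3 segments of Brap LKO livers held 1 to 4 reads in each. Among genes of the same low level, Brap LKO livers lay above in 1.49% and below in 1.06%, while here it was 3 and 1 of 122.

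The highest variable segment differed from liver to liver. It was Igkv6-25 in Brap LKO 2 (10 reads), Igkv19-93 in Brap LKO 3 (9 reads), Igkv14-111 in Brap F/F 2 (6 reads) and Igkv6-15 in Brap F/F 4 (9 reads). Ties were found in Brap LKO 1 (Igkv1-135 and Iglv2, 8 reads each), Brap LKO 4 (Iglv1 and Iglv2, 7 reads each), Brap F/F 1 (Ighv1-82 and Igkv14-126, 4 reads each) and Brap F/F 3 (Ighv1-56 and Iglv1, 4 reads each). The leading segment took 3.98% to 6.54% of variable reads in Brap LKO livers and 5.0% to 10.7% in Brap F/F livers. The effective number of segments, the inverse of the summed squared read shares, was 49.7, 43.1, 37.7 and 42.5 in Brap LKO livers and 33.3, 39.9, 30.4 and 24.5 in Brap F/F livers. These ranges overlapped, and the measure rises with the number of reads.

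At least 1 read fell on 81, 69, 60 and 66 variable segments in Brap LKO livers and on 41, 55, 41 and 39 in Brap F/F livers. The groups did not overlap, but Brap LKO livers also had more variable reads to spread. When each liver was brought to the smallest number of variable reads, 57, the expected number of segments was 39.5, 39.2, 36.4 and 40.1 in Brap LKO livers and 35.0, 40.6, 41 and 31.9 in Brap F/F livers. At equal reads, the groups overlapped. Over the series, 88 segments had reads in both groups, 26 only in Brap LKO and 8 only in Brap F/F livers. These counts cover only segments with at least 2 reads over the 8 livers, which favours the group with more variable reads. Only 2 segments were seen in all 8 livers, and 10 were seen in a single liver.

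**Figure D2:**
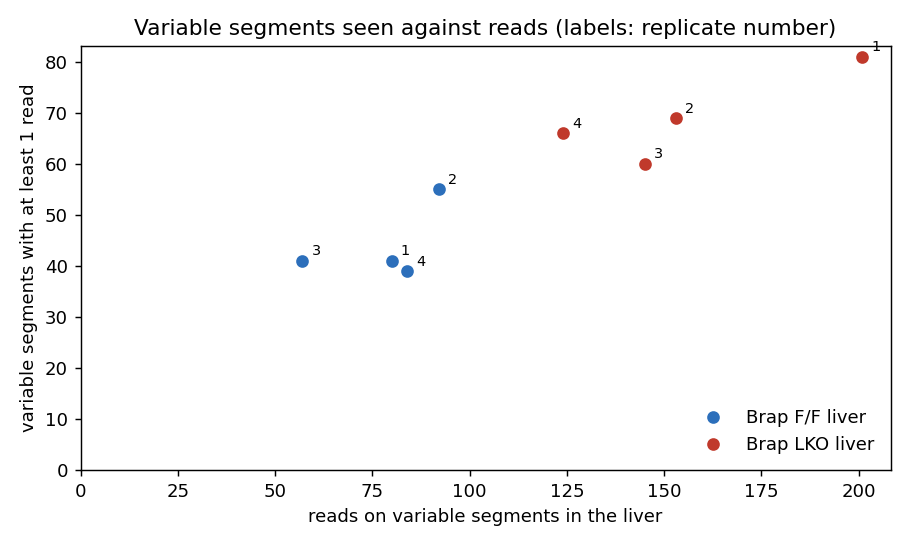
Number of variable segments with at least 1 read (y) against reads on variable segments (x) in each liver, both on linear axes from 0, with replicate numbers beside the points. The Brap LKO livers hold 124 to 201 reads and 60 to 81 segments, and the Brap F/F livers 57 to 92 reads and 39 to 55 segments.

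The share of variable reads in a family was set beside its share of the segments, without a test. Only segments with at least 2 reads over the 8 livers were counted, so a family's share of segments depends in part on the same reads. The Ighv1 family, with 30 of the 58 heavy segments (51.7%), held 53.8% of heavy variable reads, with a mean share of 54.0% in Brap LKO and 52.1% in Brap F/F livers. Among kappa families, Igkv6 (8 of 61 segments, 13.1%) held 16.9% of reads and Igkv4 (12 of 61, 19.7%) held 13.4%. The 29 heavy segments nearest the joining cluster took 47.8% ± 5.54 of heavy variable reads in Brap LKO livers and 46.2% ± 10.8 in Brap F/F livers (SD, n = 4 each). For the 30 nearest kappa segments the shares were 51.5% ± 1.59 and 53.2% ± 9.63.

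Constant segments as a whole did not separate the groups. Their sum was 678, 433, 494 and 456 normalized counts in Brap LKO livers and 311, 535, 611 and 243 in Brap F/F livers, a ratio of 1.21 with overlap. Leaving out Brap F/F 3 gave 1.42 and leaving out Brap F/F 4 gave 1.06. Ighm, the mu chain of IgM and the most abundant member by count, stood at 305, 224, 200 and 145 normalized counts in Brap LKO livers and at 104, 287, 495 and 89.3 in Brap F/F livers. Brap F/F 3 had the highest Ighm of the 8 livers and the lowest variable sum. Without Ighm the constant sum was 373, 209, 293 and 311 against 208, 248, 116 and 154, a ratio of 1.63, still with overlap. In reads, which are not scaled for depth, these groups did not overlap (246 to 409 against 110 to 244).

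Only 7 members, all of them constant segments, had a mean of at least 5 normalized counts, and limma called 0 of the 7 at an adjusted p under 0.05. Over all 15352 genes tested, 0.769% were called (0.664% higher in Brap LKO and 0.104% lower). At an unadjusted p under 0.05, 2 of the 7 were higher and 0 lower in Brap LKO, where 9.23% of all tested genes were higher and 6.59% lower. With the animal series as a covariate 0 of the 7 were, and with a liver left out 1 to 4 were higher. The median log2 difference of the 7 was 0.73, beside -0.01 for all tested genes. edgeR and DESeq2 likewise called 0, each with 2 higher and 0 lower at an unadjusted p under 0.05.

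Igkc, the only kappa constant segment and the highest member per length (chr6:70726435-70726966), stood at 141, 92.6, 115 and 113 normalized counts in Brap LKO livers and 83.2, 99.7, 39.9 and 66.7 in Brap F/F livers. Only Brap F/F 2 reached into the Brap LKO range. In reads, which are not scaled for depth, the groups did not overlap (109 to 155 against 38 to 98). The log2 difference was 0.73 (SE 0.266, limma p = 0.0221, adjusted p = 0.240, two-sided exact permutation p = 0.0571). Ighd, the delta chain that marks resting B cells before class switching (chr12:113406604-113416324), was at 47.4, 34.0, 40.5 and 23.9 against 18.2, 27.5, 14.7 and 17.7. Here the lowest Brap LKO liver lay below the highest Brap F/F liver, and the log2 difference was 0.86 (SE 0.270, limma p = 0.0103, adjusted p = 0.180, exact permutation p = 0.0571). With 4 livers in each group the smallest permutation p is 0.0286.

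Ighm (chr12:113418558-113422730) had a log2 difference of 0.15 (SE 0.509, limma adjusted p = 0.908), which was -0.14 with edgeR and -0.16 with DESeq2, so it has no set direction. The 95% interval ran from -0.998 to 1.29. Its group means were 219 ± 66.7 and 244 ± 190 normalized counts (SD, n = 4 each).

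The segments of switched classes had positive log2 differences that did not pass the test. Igha, the alpha chain of the IgA made by mucosal plasma cells (chr12:113254830-113260236), was at 90.2, 35.7, 67.8 and 62.4 in Brap LKO livers and 38.8, 78.3, 24.2 and 19.6 in Brap F/F livers (log2 difference 0.79, SE 0.429, limma adjusted p = 0.399). The gamma chain Ighg2c (chr12:113285325-113288932) was at 15.5, 13.6, 9.11 and 23.9 against 13.7, 5.09, 2.10 and 12.8 (0.997, SE 0.522, adjusted p = 0.385). Ighg2b (chr12:113302965-113307933) was at 44.6, 13.6, 39.5 and 42.6 against 36.5, 17.3, 16.8 and 28.5 (0.43, SE 0.409, adjusted p = 0.633). Ighg1 (chr12:113325240-113330523) was at 5.47, 8.50, 10.1 and 28.1 against 9.12, 15.3, 7.36 and 2.94 (0.47, SE 0.548, adjusted p = 0.697), a difference that was 0.037 without Brap LKO 4 and 0.094 without Brap F/F 4. In each of the 4 the groups overlapped.

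**Figure D3:**
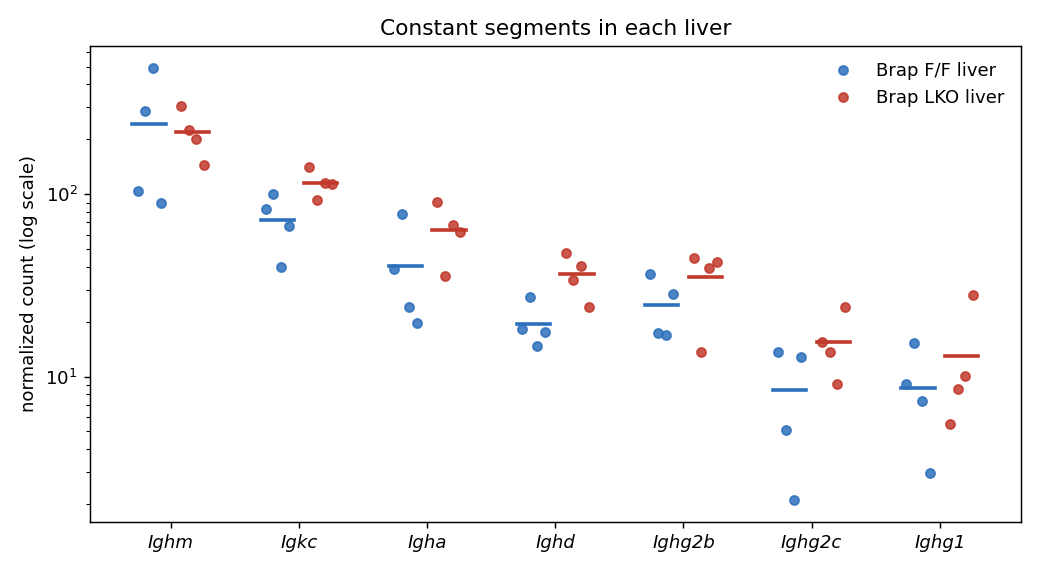
Normalized counts of the 7 tested constant segments in each liver on a log axis. Points are livers and lines the arithmetic means of the 4 livers. Ighm spans 89.3 to 495 in Brap F/F livers, and the Brap LKO mean lies above the Brap F/F mean in the other 6 segments.

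The other 4 constant segments were too low for the test. The lambda segments Iglc1, Iglc2 and Iglc3 summed to 18.2, 9.34, 9.11 and 16.6 normalized counts in Brap LKO livers and to 7.98, 3.05, 6.31 and 4.91 in Brap F/F livers. The groups did not overlap, at 9 to 20 reads against 3 to 7, whereas each of the 3 segments overlapped on its own. Among single genes, Brap LKO livers lay above in 5.48% of those with a mean of at least 5 and in 1.49% of those below it. This sum was not tested. Ighg3 ranged from 0 to 10.02 in Brap LKO livers and from 0 to 4.2 in Brap F/F livers, with 11 of its 22 reads in Brap LKO 1.

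Per length of annotated exons, which allows segments to be compared, Igkc led with 177 normalized counts per kb as the mean of the 8 livers, followed by Ighm with 123. In Brap F/F livers the per kb levels of this pair, 136 ± 47.9 and 129 ± 101, did not differ beyond their spread (SD, n = 4 each). Igkc was the higher in Brap F/F 1 (156 against 55.0), 2 (187 against 152) and 4 (125 against 47.3). Only Brap F/F 3 had the reverse order (75.1 against 263). In Brap LKO livers the levels were 217 ± 37.4 and 116 ± 35.4, and Igkc was the higher in each liver, without overlap. Igha (19.5), Ighd (14.7), Ighg2b (11.2) and Ighg2c (9.02) came next, then Iglc1 (8.09), Iglc2 (5.57), Iglc3 (5.23), Ighg1 (4.19) and Ighg3 (1.04). In Brap F/F livers, neighbours in the order from Igha to Ighg1 differed by less than the larger of their SDs over livers, and in Brap LKO livers so did all but Ighd and Ighg2b (19.2 ± 5.25 and 13.1 ± 5.41).

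The class makeup of heavy chain constant reads varied more among livers than between groups. Ighm made up 58.9%, 67.7%, 54.2% and 44.4% of these reads in Brap LKO livers and 47.2%, 66.4%, 87.7% and 52.0% in Brap F/F livers. The 95% exact binomial interval of the share in Brap F/F 3, 471 of 537 reads, was 84.6% to 90.4%, above those of all other livers. Intervals cover counting error at most. They treat each read as a separate molecule, and since molecules were not tagged they can be too narrow. Igha ranged from 10.8% to 19.2% in Brap LKO and from 4.28% to 18.1% in Brap F/F livers, and the 4 gamma segments together from 11.3% to 29.1% and from 5.40% to 26.9%. All these shares overlapped between the groups.

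**Figure D4:**
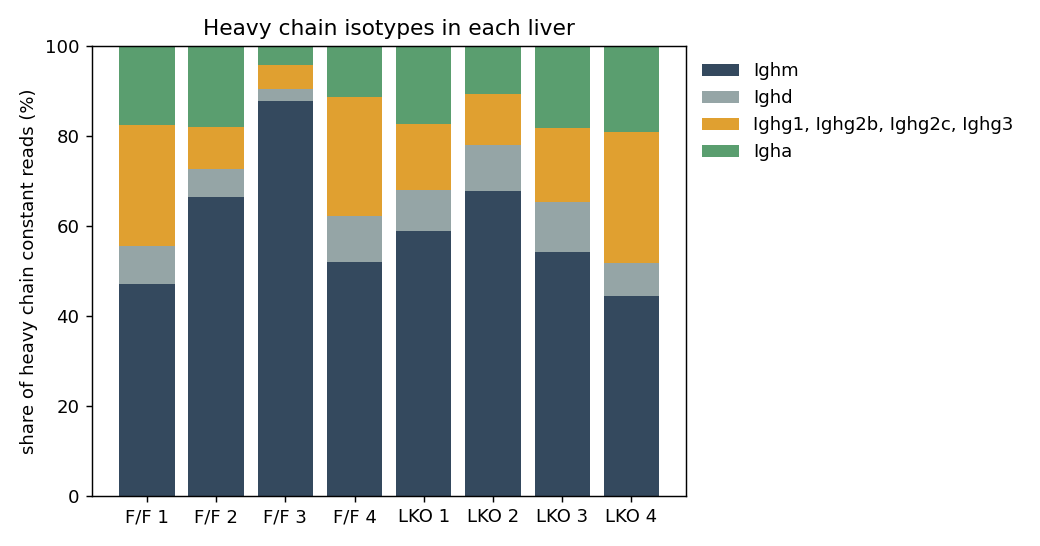
Share of heavy chain constant reads on Ighm, Ighd, the 4 gamma segments and Igha in each liver, as stacked bars that sum to 100%. Brap F/F 3 stands apart with 87.7% Ighm.

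Ratios within a liver, which need no scaling between libraries, set the same liver apart. Ighm reads per Igkc read were 2.16, 2.42, 1.74 and 1.28 in Brap LKO livers and 1.25, 2.88, 12.4 and 1.34 in Brap F/F livers. Kappa variable reads per Igkc read were steadier, at 0.703, 0.743, 0.711 and 0.569 against 0.575, 0.520, 0.605 and 0.632. Thus in Brap F/F 3 the excess was on Ighm and not on kappa segments, and the heavy variable reads per heavy constant read were also the lowest there (0.0484, against 0.0824 to 0.181 in the other 7 livers). Igha per Igkc read was 0.541 ± 0.110 in Brap LKO and 0.538 ± 0.209 in Brap F/F livers (SD, n = 4 each). Lambda took 7.32% to 12.8% of light chain constant reads in Brap LKO livers and 2.97% to 13.6% in Brap F/F livers.

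Ighj1 was the only joining segment whose groups did not overlap, and was singled out after its values were seen. It was at 0, 0.850, 0 and 0 normalized counts in Brap LKO livers and 2.28, 2.03, 1.05 and 1.96 in Brap F/F livers, which is opposite to the variable sum. In reads the groups met, since Brap LKO 2 and Brap F/F 3 had 1 read each, and the gap lies in the scaling. It held at most 2 reads in any liver, and neither limma nor edgeR without filter called it (adjusted p = 0.176 and 0.365). Ighj3, also named after its values were seen, went the other way (edgeR without filter, log2 difference 3.66, unadjusted p = 0.0316, adjusted p = 0.381). In that fit Ighj1 was at -2.43 (unadjusted p = 0.0282). No joining segment had reads in all 8 livers.

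Genes that mark B cells leaned the same way as the variable segments, without passing the test. Of 16 B cell genes 14 were tested, and 14 of 14 had a log2 difference above 0 (48.0% of all tested genes did), with a median of 0.82. Blk, Ebf1, Fcrla, Ms4a1 and Cr2 had Brap F/F means of only 2.35 to 4.38 and passed the filter of 5 through the Brap LKO livers. The filter thus leans to genes higher in Brap LKO livers. Without it, 15 of 16 were above 0, with a median of 0.77. At an unadjusted p under 0.05, 8 of the 14 were higher and 0 lower, beside 9.23% and 6.59% of all tested genes. In every Brap LKO liver 5 were higher than in any Brap F/F liver (as were 5.48% of all tested genes), among them Blk, Fcrla and Ms4a1. Both limma and edgeR called 0 of the 14, where limma called 0.769% of all tested genes. The summed level was 458, 270, 232 and 370 normalized counts in Brap LKO livers and 181, 171, 202 and 247 in Brap F/F livers, with overlap. Ms4a1, the CD20 antigen of mature B cells, was at 20.04, 18.7, 9.11 and 14.6 against 3.42, 1.02, 8.41 and 3.92. Its groups did not overlap, and the log2 difference was 1.83 (SE 0.474, limma adjusted p = 0.113, exact permutation p = 0.0286). Among the alternatives it passed the threshold only with DESeq2 (1.91, adjusted p = 0.0321). Without Brap F/F 4, limma called Spib, a B cell transcription factor (log2 difference 1.73, adjusted p = 0.048), which was at 1.201 with all livers (adjusted p = 0.296) and was picked out after its values were seen.

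The B cell receptor partners were less far apart. Cd79b was at 21.0, 15.3, 26.3 and 26.0 normalized counts in Brap LKO livers and 6.84, 14.2, 9.46 and 13.7 in Brap F/F livers (log2 difference 0.96, SE 0.296, limma adjusted p = 0.175), a gene chosen after its values were seen. Cd79a, which pairs with it, was at 17.3, 11.0, 7.08 and 21.8 against 6.84, 11.2, 9.46 and 6.87 (0.59, SE 0.362, adjusted p = 0.451). Of the B cell genes of highest mean, Cd72, Cd22 and the B cell transcription factor Pax5 had log2 differences of 0.63, 0.53 and 0.58, and Bank1 of 0.14, each with overlap.

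Plasma cell genes lay on both sides of 0. Jchain, which links IgA and IgM into polymers, was at 44.6, 31.4, 33.4 and 23.9 normalized counts in Brap LKO livers and 18.2, 52.9, 26.3 and 25.5 in Brap F/F livers (log2 difference 0.19, SE 0.324, limma adjusted p = 0.803). Of 11 plasma cell genes tested 5 were above 0 and 6 below, with a median of -0.01. At an unadjusted p under 0.05, 2 of the 11 were higher, beside 9.23% of all tested genes. These were Tnfrsf13b and Pou2af1, named after their values were seen, which B cells also express. With limma, edgeR and DESeq2, 0 plasma cell genes were called, where limma called 0.769% of all tested genes. Some of the list is also expressed by the liver itself, where Sdc1 stood at 4736 to 6346 and Xbp1 at 4532 to 7739 normalized counts. Creld2 and Derl3, which serve the secretory pathway, had log2 differences of -0.14 and 1.01 (adjusted p = 0.862 and 0.352). The more specific Mzb1 was at 4.55 to 12.5 in Brap LKO and 7.12 to 13.7 in Brap F/F livers (-0.08), and was chosen after its values were seen.

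**Figure D5:**
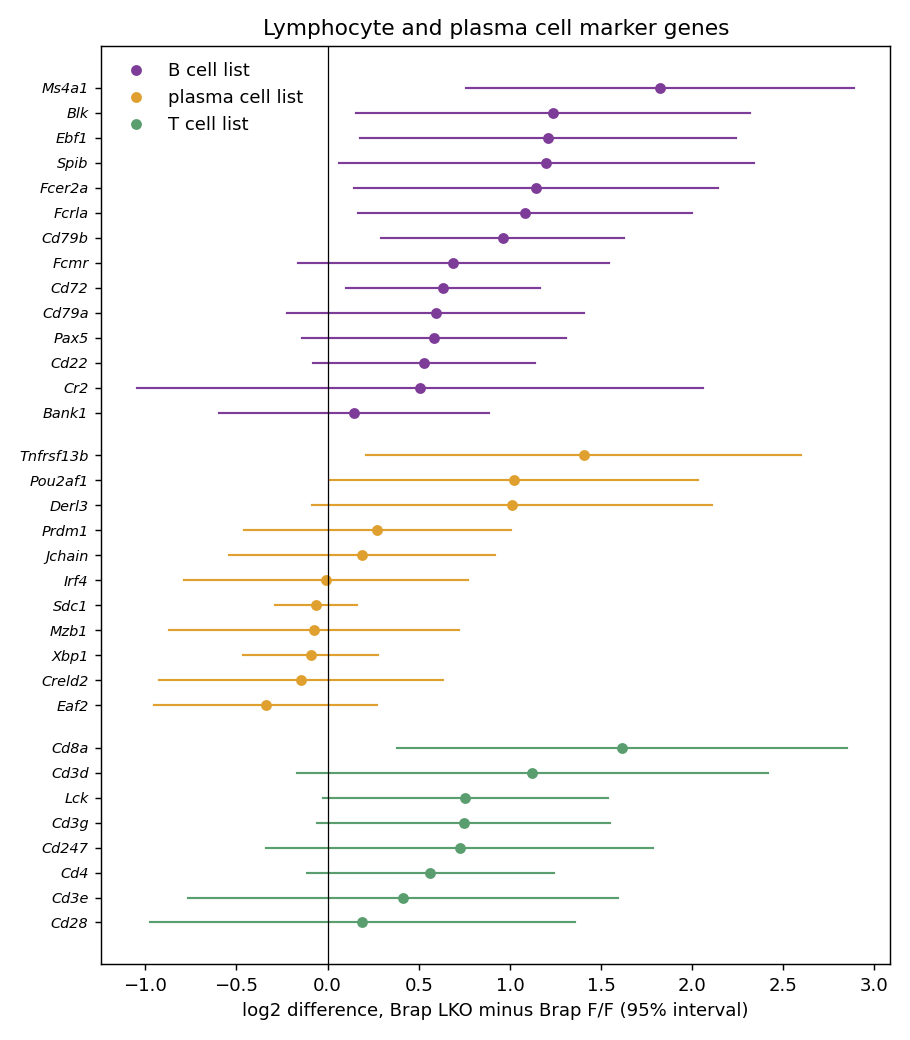
Log2 differences (Brap LKO minus Brap F/F, limma on log2 of the normalized count plus 1) with 95% intervals for the tested genes of the B cell, plasma cell and T cell lists. All 14 B cell genes and all 8 T cell genes lie to the right of 0, and the 11 plasma cell genes lie on both sides.

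T cell genes also had log2 differences above 0. All 8 tested did so (median 0.74), beside 48.0% of all tested genes. Cd3d and Cd247, with Brap F/F means of 4.07 and 4.89, passed the filter of 5 through the Brap LKO livers. Without the filter, 10 of 10 were above 0. At an unadjusted p under 0.05, 1 of the 8 was higher, beside 9.23% of all tested genes. With limma, edgeR and DESeq2, 0 T cell genes were called, where limma called 0.769% of all tested genes. Their summed level was 159 to 240 normalized counts in Brap LKO livers and 108 to 179 in Brap F/F livers. Cd4, Cd3e, Lck and Cd3g, the 4 of highest mean, had log2 differences of 0.56, 0.41, 0.76 and 0.75. Kupffer cell and macrophage genes had a median of 0.24 (9 of 10 above 0) and neutrophil genes of 0.41 (3 of 3). Red blood cell genes had a median of -0.08 (1 of 6, and 4 of 6 without Brap LKO 4 or Brap F/F 2) and hepatocyte genes of -0.26 (2 of 8). In each of these lists 0 were called, beside the same 0.769% of all tested genes. The part of these cell types in the immunoglobulin sums was not tested.

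Genes that carry, bind or act on immunoglobulin gave no call, in lists of at most 9 tested genes. Over all tested genes limma called 0.769%, and at that share lists so short can go without a call. Among transport and Fc receptor genes 6 of 9 were above 0 (48.0% of all tested genes were), with a median of 0.16. Pigr, the epithelial receptor that carries polymeric IgA into bile, was at 49042 to 58289 normalized counts in Brap LKO livers and 55790 to 59511 in Brap F/F livers (log2 difference -0.09, SE 0.111, limma adjusted p = 0.725). Fcgrt, which recycles IgG, had a log2 difference of -0.09, the inhibitory receptor Fcgr2b of 0.15, and the cytosolic antibody receptor Trim21 of 0.42 (SE 0.138, limma adjusted p = 0.201). Among survival and homing genes 8 of 9 were above 0, with a median of 0.21. Cxcr4, the receptor for Cxcl12, was at 40.1, 34.0, 33.4 and 29.1 against 17.1, 28.5, 28.4 and 11.8, without overlap (0.72, limma adjusted p = 0.280). Brap LKO livers lay above in this way in 5.48% of all tested genes.

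The other survival and homing genes of highest mean were Cxcl12 (0.21), Cxcl13, which draws B cells to follicles (-0.01), and Tnfsf13b, the survival factor BAFF (0.02). Of the genes for segment rearrangement and class switching, 6 of 11 were in the table and 5 were tested, with a median log2 difference of 0.01. The 4 of highest mean, Dclre1c, Ung, Lig4 and Xrcc4, are repair genes that many cell types use, and had differences of 0.18, -0.02, 0.01 and -0.14.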

How the data were processed

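Livers (4 Brap LKO, 4 Brap F/F) were grouped by the labels. The authors used the NuGEN Universal Plus mRNA kit and aligned single-end reads of 50 bases to mm10 with STAR 2.6.0c. The counting tool, annotation release and use of strand are not given in the sources used here. The deposited signal is a gene's read count over the liver's DESeq2 size factor, as computed by the authors. All values (100%) were whole multiples of the value of 1 read within a tolerance of 1e-06, which gives back the reads. The authors' comparison table (mean, log2 fold change with its standard error, fold change, p-value and adjusted p-value) was not used.

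The groups were compared with limma 3.58.1 (R 4.3.3, lmFit and eBayes with a trend) on log2(normalized count + 1) over 15352 genes with a mean of at least 5, without covariates, at a Benjamini-Hochberg adjusted p of 0.05. Fold changes on this scale understate changes of low genes. As the paper used DESeq2 on counts, edgeR 4.0.16 and DESeq2 1.42.0 were run on recovered reads as alternatives, all tested on simulated data. Single genes also had two-sided exact permutation tests (70 arrangements). Sums over members had no test. Shares have exact binomial (Clopper-Pearson) intervals (95%), and a count of 0 allows up to 3 reads. Per the labels each liver came from its own animal.

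The members and lists were chosen with earlier results of these data known. Genes named are the tested constant segments, the 10 variable segments of highest mean and the highest of each liver, any member past the threshold, of each list the genes past the threshold and the 4 of highest mean, Jchain, Cd79a, Ms4a1 and Brap, and 1 gene of the B cell list and of this rule is not reported here and was left out of all list values. The highest genes of the red blood cell, macrophage, neutrophil and hepatocyte lists are given by list, Apoa1 excepted. Positions, exon lengths and sequences came from GENCODE vM21 (GRCm38).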

Additional observations from a re-analysis of the deposited data

Results flagged for a closer look

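In 60 groups of 4 livers, over the normalized counts of 12 named genes and 18 sums, shares and ratios, a liver's gap to its nearest neighbour was compared with the range of its group (Dixon's criterion at 95%). It was exceeded 5 times, where chance gives about 1 in 20 groups, or 3. Ighg2b was at 13.6 normalized counts in Brap LKO 2, with the next liver of its group at 39.5. The summed joining segments were at 17.2 in Brap LKO 3, next to 9.36, and at 5.26 in Brap F/F 3, next to 11.2. Ighm reads per Igkc read were 12.4 in Brap F/F 3, next to 2.88. Variable segments with at least 1 read numbered 55 in Brap F/F 2, next to 41.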

How the results depend on the processing

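Members called in either direction remained at 0 in all 20 alternatives. Most of these tested only the 7 constant segments above the filter, or 5 with a minimum mean of 20, and so could call no variable segment. All 144 members were fitted only without the filter, with limma, edgeR and DESeq2. There DESeq2 gave an adjusted p for only 12 of them. The variable sum kept its log2 ratio (0.85) between 0.725 and 1.005 in 10 alternatives, and the constant sum (0.28) between 0.08 and 0.71 in 12. Leaving out 1 liver gave 0.72 to 0.92 and 0.08 to 0.50, and the constant sum without Ighm, added after seeing the data, gave 0.71. No variable segment had a mean of at least 5, so that alternative gives no value there. Calls over all genes (102 higher, 16 lower) were 459 higher with the same total per liver, 455 higher and 170 lower with DESeq2 (448 and 159 without filter, added after seeing the data), 9 lower with a minimum mean of 20, and 11 to 178 higher and 4 to 54 lower with each liver left out. The same total per liver moved the median of all genes from -0.01 to 0.15. Ighm turned to -0.14 with edgeR (also without filter, where it was -0.14, added later), -0.16 with DESeq2 (-0.16 without filter), and ranged from -0.22 to 0.60 with a liver left out, below 0 without Brap LKO 1 (-0.03), Brap F/F 1 (-0.15) or Brap F/F 4 (-0.22). With a liver left out Igkc ranged from 0.47 to 0.91, Ighd from 0.72 to 1.04, Igha from 0.52 to 1.17, Ighg2c from 0.55 to 1.30, Ighg2b from 0.27 to 0.82 and Ighg1 from 0.037 to 0.78. With the animal series as a covariate the unadjusted p of Igkc was 0.0811 and that of Ighd 0.0521 (limma). Jchain ranged from -0.015 (without Brap F/F 1) to 0.48 with a liver left out, and Brap turned to 0.086 with the same total per liver. The cause was not tested.

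With the replicate number as a block, 80 genes were higher and 15 lower, and 0 of the 7 tested members were called. Deviations of livers with the same number correlated at -0.13, 0.00, 0.20 and 0.29, and 3 of 4 Brap LKO livers correlated best with their own number. So few correlations cannot settle whether the numbers pair the livers. Of the B cell genes, 13 or 14 of 14 were above 0 with any liver left out, and of the T cell genes 6 to 8 of 8. With a liver left out the median of red blood cell genes ran from -0.26 to 0.21 (above 0 without Brap LKO 4 or Brap F/F 2), of neutrophil genes from 0.10 to 0.74 and of plasma cell genes from -0.06 to 0.15. Variable segments hold 57 to 201 reads per liver, which limits what can be said of any single segment.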
